A study of Mus musculus with 24 samples.

Results

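The question addressed here was whether the effect of adipocyte Lpin1 loss on liver gene expression depended on the diet. All 20 single-mouse liver libraries of the 24 in the series entered the comparison, which was chosen as (Adn-Lpin1-/- HFD minus WT HFD) minus (Adn-Lpin1-/- LFD minus WT LFD). The remaining 4 libraries, 1 per group, are labelled as pools of mice 1 to 5 and were left out of the tests. By these labels they repeat the same animals, whereas the study's text gives n = 6.

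Adn-Lpin1-/- mice carry floxed Lpin1 alleles and Cre recombinase driven by the adiponectin promoter, which deletes the gene in adipocytes. WT mice were littermates that carry the same floxed alleles without Cre. Deletion outside the liver means that Lpin1 counts in liver do not check the genotype labels. The 4 groups of 5 male mice each were WT on a low-fat diet (LFD, 10% of kcal from fat), Adn-Lpin1-/- on the LFD, WT on a high-fat diet (HFD, 60% of kcal) and Adn-Lpin1-/- on the HFD. Feeding started at 8 weeks of age, and all mice were fasted for 4 hours before tissue collection. The sample labels give 16 weeks of feeding, whereas the study's methods give 5 weeks. The 2 diets shared no mouse, so the 2 genotype effects rest on separate animals.

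Lipin 1 is a phosphatidic acid phosphohydrolase that makes diacylglycerol on the route to triglyceride. The liver esterifies, oxidizes or exports the fatty acids that it takes up or makes. The liver genes for cholesterol synthesis are controlled together by the transcription factor SREBP2, those for fatty acid synthesis by SREBP1c, ChREBP and insulin, and MHC class II genes mark antigen-presenting cells, which in liver are mainly Kupffer cells, dendritic cells and B cells.

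Total counts were lower in WT LFD, at 36260187 to 45999456 per mouse, than in the other groups, at 51095146 to 81072794, so the LFD comparison was less deep on its WT side. The median total of Adn-Lpin1-/- mice was 1.30 times that of WT mice on the LFD and 1.09 times on the HFD. Of the 8 hepatocyte markers listed, 7 passed the filter on low counts, whereas none of the 6 skeletal muscle markers and 1 of the 8 pancreas markers did. The hepatocyte markers summed to 108895 to 119879 CPM in WT LFD (median 112375), 85475 to 107916 in Adn-Lpin1-/- LFD (105357), 98264 to 127488 in WT HFD (120271) and 85467 to 109493 in Adn-Lpin1-/- HFD (89321). In Adn-Lpin1-/- mice 1 of the 7 was called lower with the LFD (8.11% of all genes) and 3 with the HFD (8.78%). The part of hepatocyte content in the effects below was not tested. Libraries come from bulk tissue, where fewer cells of a type and less RNA per cell cannot be told apart. Levels are CPM on TMM-scaled library sizes, and effects are log2 fold changes of Adn-Lpin1-/- over WT with the standard error, n = 5 mice per group. The diet difference of a gene is its effect on the HFD minus its effect on the LFD. Calls are genes with a Benjamini-Hochberg adjusted p of at most 0.05 in the quasi-likelihood test of edgeR.

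No gene passed the threshold for the diet difference (0.0% of 13052 tested, smallest adjusted p = 0.287 by edgeR's quasi-likelihood test). At an unadjusted p under 0.05 there were 938 genes (7.19%), of which 535 had a higher effect on the HFD (4.1%) and 403 a lower one (3.09%). The same contrast gave 30 calls with DESeq2's Wald test, 0 with voom and quality weights, and 4 with edgeR when the pools were added as sixth libraries. The largest count, 190 genes (91 higher and 99 lower), came from voom with quality weights and the pools. By their labels the pools repeat the RNA of the same mice, so their addition raises n without adding animals. The typical gene was measured to within 0.35 on the log2 scale (the median half-width of the 95% interval of the diet difference), and the whole interval lay inside a 2-fold change in either direction for 10919 genes (83.7%). For the other genes a 2-fold diet difference was not excluded at this number of mice.

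Within each diet the genotype effect was broad. It was called for 1877 genes on the LFD (14.4% of those tested, 818 higher and 1059 lower in Adn-Lpin1-/-) and for 2434 on the HFD (18.6%, 1288 higher and 1146 lower). Without mouse 3 of WT LFD the LFD count was 1208, and without mouse 2 of Adn-Lpin1-/- HFD the HFD count was 1477. The ranges of the genotypes did not overlap for 1319 genes on the LFD (10.1%), 1486 on the HFD (11.4%) and 462 on both diets (3.54%). The effects on the 2 diets had a Pearson correlation of 0.708 across the 13052 genes and the same sign in 9682 of them (74.2%). Genes are not independent replicates, and this describes the 20 mice. Of the LFD calls, 1810 (96.4%) had the same sign on the HFD, where the median effect in the direction of the call was 0.35 against 0.49 on the LFD. Of the HFD calls, 2303 (94.6%) had the same sign on the LFD, with medians of 0.48 on the HFD and 0.31 on the LFD. In each case the call selects large values on its own diet, so the smaller median on the other diet is not a measured difference.

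Both diets called 1015 genes, and 1013 of them moved in the same direction (418 higher and 595 lower), which was 54.0% of the LFD calls and 41.6% of the HFD calls. The 95% interval of the diet difference stayed inside a 2-fold change for 904 of the 1013 and inside a 1.5-fold change for 689. An unadjusted p under 0.05 for the diet difference was found for 35 of the 1015 (3.45%), 205 of the 862 genes called on the LFD alone (23.8%), 325 of the 1419 called on the HFD alone (22.9%) and 373 of the 9756 called on neither (3.82%). These classes are made from the same mice as the diet difference, so their shares describe the classes and test nothing. Genes called on 1 diet alone were not thereby shown to differ between diets: 797 of the 862 and 1290 of the 1419 had the same sign on the other diet.

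**Figure D1:**
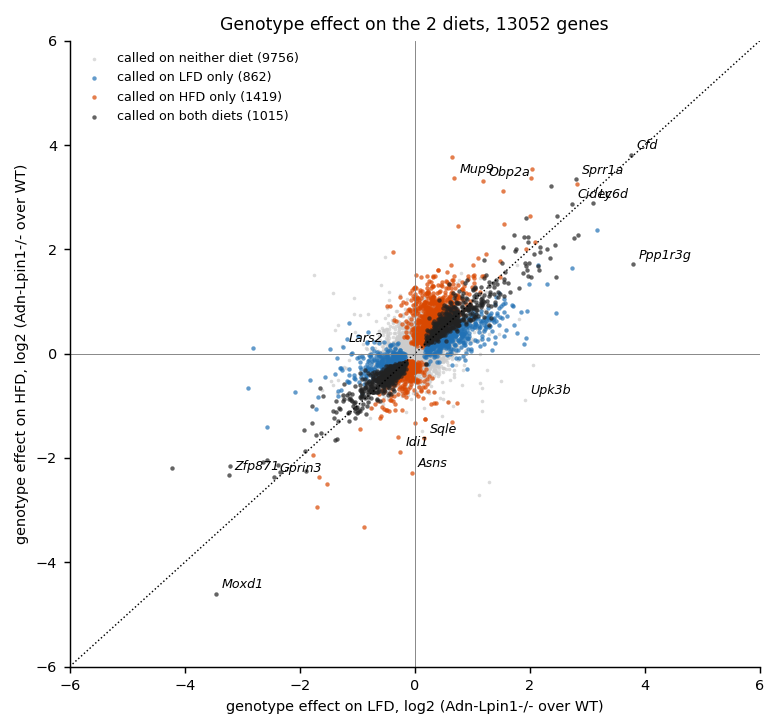
Each point is 1 of 13052 genes, with its genotype effect (log2, Adn-Lpin1-/- over WT) on the LFD on the x axis and on the HFD on the y axis, and colours mark the diets on which it was called. Of the 1015 genes called on both diets, 1013 have the same sign on both axes (the dotted line marks equal effects), and 1 gene (Cidea) lies outside the axes.

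The shared increases with the largest size on both diets were Cidea, Cfd, Ly6d, Sprr1a and Cidec. Cidec, a protein that enlarges lipid droplets, was measured at 7.22 to 18.6 CPM in WT LFD and 24.8 to 114 in Adn-Lpin1-/- LFD. On the HFD it was at 6.63 to 17.5 CPM in WT and 14.8 to 133 in Adn-Lpin1-/- mice. The genotypes did not overlap on the LFD and 1 Adn-Lpin1-/- HFD mouse lay below the highest WT HFD mouse, with effects of 2.74 ± 0.54 and 2.88 ± 0.54 and a diet difference of 0.14 (95% interval -1.37 to 1.64). Ly6d, a surface protein of the Ly6 family, rose by 3.11 ± 0.75 on the LFD and 2.88 ± 0.74 on the HFD. Sprr1a, a small proline-rich protein of keratinized epithelium and injured tissue, rose by 2.81 ± 0.88 and 3.34 ± 0.85 from under 1 CPM in every WT mouse. Cfd, which encodes the adipocyte-rich complement factor D, rose by 3.76 ± 1.18 and 3.81 ± 1.02. For these genes the spread among Adn-Lpin1-/- mice was wide, and the intervals of the diet difference of Ly6d (-2.34 to 1.90), Sprr1a (-2.07 to 3.14) and Cfd (-3.13 to 3.23) each leave room for more than a 2-fold difference in either direction. The LFD calls of Cfd and Sprr1a were lost with 6 and 7 of the 20 mice left out in turn. Adipocyte markers, of which 4 of 8 were tested, were called higher for 3 with the LFD (Cfd, Fabp4 and Pparg) and 2 with the HFD (Cfd and Fabp4). Of all genes, 6.27% and 9.87% were called higher. Adipoq, Lep, Retn and Plin1 did not pass the filter on low counts. The list summed to 33.5 to 50.6 CPM in WT LFD, 47.4 to 109 in Adn-Lpin1-/- LFD, 35.7 to 73.2 in WT HFD and 43.9 to 257 in Adn-Lpin1-/- HFD. The part of adipocytes in these increases was not tested.

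Among the shared decreases, Zfp871, a zinc finger gene on the minus strand of chromosome 17 (32765496 to 32788287, GRCm38), was at 21.3 to 27.5 CPM in WT LFD, 1.52 to 3.66 in Adn-Lpin1-/- LFD, 20.4 to 25.7 in WT HFD and 2.98 to 6.52 in Adn-Lpin1-/- HFD. No mouse of one genotype reached the range of the other on either diet, and the effects were -3.23 ± 0.21 and -2.34 ± 0.20. The diet difference was 0.89 ± 0.27 (95% interval 0.32 to 1.47), with an adjusted p of 0.453 by edgeR. Lcor, a ligand-dependent nuclear receptor corepressor, fell by 2.34 on the LFD and by 2.28 on the HFD, with a diet difference of 0.07 ± 0.30. Gprin3 fell by 2.45 and 2.37 (diet difference 0.08 ± 0.30), and Lnpep, the insulin-regulated aminopeptidase that travels with GLUT4 vesicles, fell by 2.37 and 2.14 (0.23 ± 0.20). In Gprin3, Lcor and Lnpep the genotypes did not overlap on either diet. Moxd1, a monooxygenase-like gene, had larger fitted decreases (-3.45 ± 1.08 and -4.60 ± 1.42), yet its WT mice ranged from 0.592 to 20 CPM on the LFD and from 0 to 5.55 on the HFD, and the genotypes overlapped on both diets. Its LFD call was lost with 6 of the 20 mice left out in turn, and its HFD call with 4, among them mouse 5 of WT HFD, without which the effect was -2.07. With voom and quality weights it was -1.66 on the HFD and not called.

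The 12 genes with the smallest p for the diet difference, 6 per direction, had adjusted p-values of 0.287 to 0.308 by edgeR's quasi-likelihood test, so none passed. They are given as the values most unlike between diets in these mice.

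Lars2 (chromosome 9, 123366927 to 123462666, plus strand, GRCm38), the mitochondrial leucyl-tRNA synthetase, had the smallest p. It was at 433, 557, 468, 427 and 452 CPM in the WT LFD mice, 241, 243, 176, 201 and 124 in Adn-Lpin1-/- LFD, 184, 279, 171, 259 and 216 in WT HFD, and 202, 169, 290, 306 and 242 in Adn-Lpin1-/- HFD. The WT LFD mice stood above the other 15 mice, so the effect of -1.25 ± 0.18 on the LFD was joined by one of 0.13 ± 0.18 on the HFD (diet difference 1.37 ± 0.26). With voom, quality weights and the pools, the LFD effect of Lars2 was -0.64 and its diet difference 0.70. Malat1, an abundant long noncoding RNA that stays in the nucleus, was at 857 to 1086 CPM in WT LFD, 598 to 982 in Adn-Lpin1-/- LFD, 527 to 792 in WT HFD and 757 to 1328 in Adn-Lpin1-/- HFD, with a diet difference of 1.01 ± 0.21. Over the alternative settings with no mouse left out, the diet difference of Malat1 ran from 0.68 to 1.04 and its HFD effect from 0.46 to 0.75. Ribosomal RNA took 0.354% to 0.465% of the counts in WT LFD, 0.316% to 0.382% in Adn-Lpin1-/- LFD, 0.361% to 0.440% in WT HFD and 0.265% to 0.440% in Adn-Lpin1-/- HFD. Its part in the values of Lars2 and Malat1 was not tested.

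Kif5a, a kinesin heavy chain, was at 1.81 to 2.55 CPM in WT HFD and 4.54 to 5.17 in Adn-Lpin1-/- HFD, without overlap, and at 2.36 to 3.34 and 2.58 to 4.09 on the LFD. Its effect was 0.23 ± 0.13 on the LFD against 1.06 ± 0.13 on the HFD, and it was called on the HFD alone. Wdr91, a regulator of endosome maturation, had effects of 0.15 ± 0.09 and 0.71 ± 0.09 and likewise separated the genotypes without overlap on the HFD. Zfhx4, a large zinc finger homeobox protein, was lower in Adn-Lpin1-/- mice on both diets, with effects of -0.86 ± 0.09 for the LFD and -0.31 ± 0.09 for the HFD. The HFD call was lost without mouse 1 of WT HFD or mouse 1 or 2 of Adn-Lpin1-/- HFD. Tnfrsf14, a receptor of the TNF family, was called on the LFD alone (-0.54 ± 0.12 against 0.23 ± 0.12).

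In the opposite direction, Pmvk, an enzyme of the mevalonate pathway, had the largest diet difference of the 6 (-1.27 ± 0.26) and is described with the cholesterol genes. Erg28, a membrane protein of sterol demethylation, was at 52.1 to 62.3 CPM in WT HFD and 33.0 to 39.0 in Adn-Lpin1-/- HFD, without overlap. On the LFD the genotypes overlapped, at 39.4 to 49.6 and 36.1 to 43.5 CPM, and the effects were -0.07 ± 0.07 on the LFD and -0.59 ± 0.07 on the HFD. Apcs, the pentraxin serum amyloid P, was at 30.8 to 45.7 CPM in WT HFD and 18.8 to 29.5 in Adn-Lpin1-/- HFD, with effects of 0.11 ± 0.13 and -0.71 ± 0.13. Ddt, a homologue of macrophage migration inhibitory factor, had effects of 0.16 ± 0.08 and -0.36 ± 0.08 (diet difference -0.52, or -0.34 with voom, quality weights and the pools), and the orphan nuclear receptor gene Nr2c1 had 0.12 ± 0.08 and -0.36 ± 0.08.

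Slu7 and Denr were the only genes called on both diets in opposite directions. Slu7, a splicing factor, was at 21.1 to 23.3 CPM in WT LFD and 23.7 to 26.7 in Adn-Lpin1-/- LFD, and at 27.5 to 33.2 in WT HFD and 24.4 to 27.2 in Adn-Lpin1-/- HFD. The genotypes did not overlap on either diet, yet the effects were small, at 0.19 ± 0.06 and -0.19 ± 0.06. In WT mice Slu7 rose with the HFD (0.38, adjusted p = 0.00941 by edgeR), and in Adn-Lpin1-/- mice its adjusted p was 0.996. Denr, a translation reinitiation factor, had effects of 0.20 ± 0.06 and -0.19 ± 0.06. With voom, quality weights and the pools its LFD effect was 0.03 and not called, and its diet difference was -0.15 instead of -0.39. For both genes the adjusted p of the diet difference missed the threshold (0.292 for Slu7 and 0.308 for Denr by edgeR). Their genotype calls were at the edge of the threshold as well. Of the 20 single mice left out in turn, 5 ended the LFD call of Slu7 and 4 its HFD call, and 9 and 7 ended those of Denr. The replicate block and the absence of a low-count filter also ended each of these calls.

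**Figure D2:**
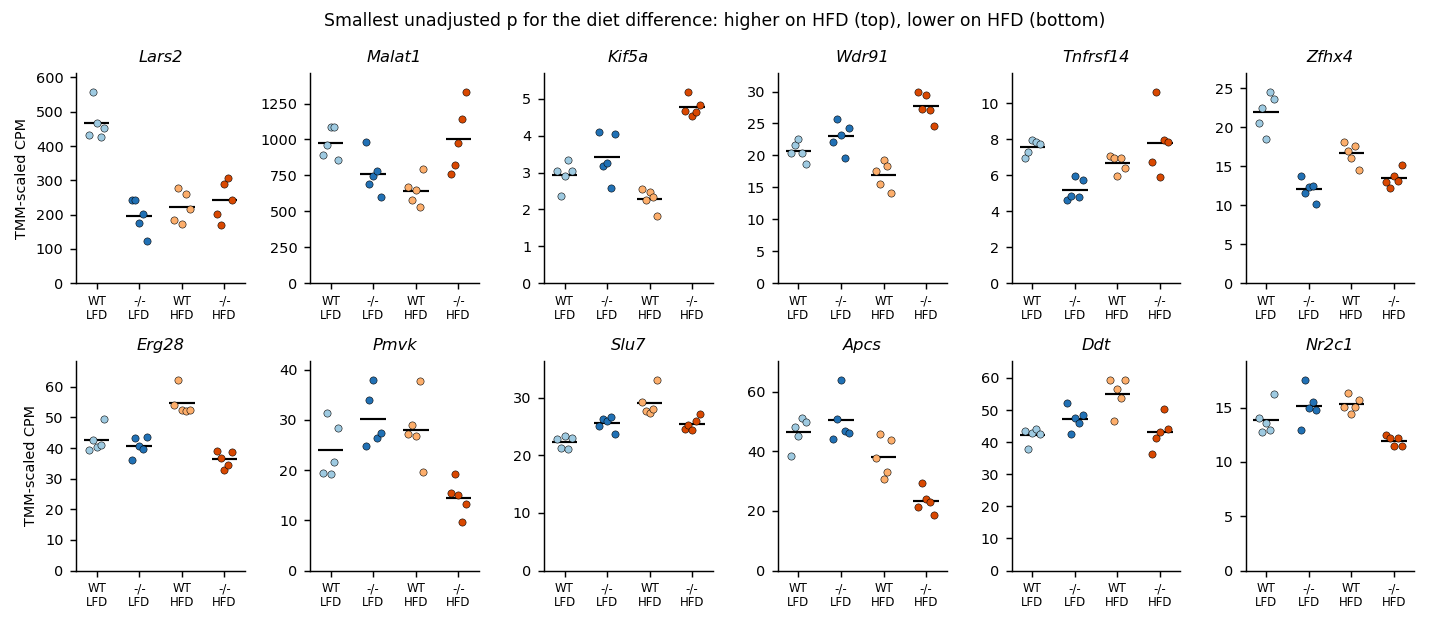
Each panel gives the TMM-scaled CPM of 1 gene in the 5 mice of each group (points, with Adn-Lpin1-/- written as -/-) and the group mean (line), with 6 genes of higher diet difference above and 6 of lower diet difference below. In Kif5a, Wdr91, Erg28, Pmvk, Slu7, Apcs and Nr2c1 the genotypes separate on the HFD, whereas Lars2, Tnfrsf14 and Zfhx4 separate on the LFD, and Slu7 also does so there.

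Among the pathway lists, cholesterol synthesis had the lowest median diet difference. On the LFD 2 of its 25 members were called, 1 higher and 1 lower (14.4% of all genes were called), and the median effect was 0.15. With the HFD 17 were called, all lower in Adn-Lpin1-/- mice (8.78% of all genes were called lower), and the median was -0.67. The diet difference was below 0 in 25 of 25 members (48.5% of all genes), with a median of -0.63 against 0.01 over all genes, and 16 had an unadjusted p under 0.05 (3.09% of all genes in this direction). None passed on its own (smallest adjusted p = 0.292 by edgeR). The members share the same 20 mice and a common regulator, so they are not separate pieces of evidence. With 1 mouse left out at a time, 14 to 17 members were called on the HFD, 14 to 18 had an unadjusted p under 0.05, and the median diet difference ran from -0.76 to -0.50. With voom, quality weights and the pools, 14 of the 25 were called lower.

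Seen along the other axis of the design, the HFD went with a median change of 0.22 in the cholesterol genes of WT mice, with no call (1.1% of all genes), and of -0.44 in Adn-Lpin1-/- mice, with 5 members called lower (2.46% of all genes were called, 1.26% lower). These 5 were Pmvk, Fdps, Tm7sf2, Dhcr7 and Sc5d.

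The promoters of the 2 members of smallest p with a single entry in the RefSeq promoter table of GRCm38.p6, Cyp51 and Nsdhl, are shown for the CCAAT box, the site of the factor NF-Y, which binds beside SREBP in many sterol genes. They were chosen after the values were seen. Each run covers 250 bases before to 50 bases after the start, 5′ to 3′ on the gene's strand, and capitals mark CCAAT on either strand (CCAAT or ATTGG). Cyp51, on the minus strand of chr5:4104648-4104947, held 1 such match and Nsdhl, on the plus strand of chrX:72918271-72918570, held 4.
Cyp51: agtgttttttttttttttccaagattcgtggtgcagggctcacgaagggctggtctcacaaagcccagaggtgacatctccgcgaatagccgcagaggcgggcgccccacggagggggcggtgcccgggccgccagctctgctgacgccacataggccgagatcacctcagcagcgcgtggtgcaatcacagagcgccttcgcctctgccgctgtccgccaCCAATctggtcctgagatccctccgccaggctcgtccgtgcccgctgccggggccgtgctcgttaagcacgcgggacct
Nsdhl: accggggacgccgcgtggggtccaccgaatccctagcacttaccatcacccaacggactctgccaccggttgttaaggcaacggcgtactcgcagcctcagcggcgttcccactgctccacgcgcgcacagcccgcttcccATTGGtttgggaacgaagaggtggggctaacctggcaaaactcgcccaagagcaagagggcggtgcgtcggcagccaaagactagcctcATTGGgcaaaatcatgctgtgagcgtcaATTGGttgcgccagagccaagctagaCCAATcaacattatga
A match of these letters was found in 37.4% of the 32851 promoters in the table, and in 16 of the 17 cholesterol genes that had an entry. The E-box CACGTG was in 7.15% of all promoters and 4 of the 17, and the nuclear receptor half-site AGGTCA, on either strand, in 16.3% and 3 of the 17. A match says only that the letters are there.

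The calls on the HFD fell on early and late enzymes of the pathway. Pmvk, which phosphorylates mevalonate phosphate, was at 19.2 to 31.4 CPM in WT LFD and 24.9 to 38.0 in Adn-Lpin1-/- LFD, and at 19.6 to 37.8 in WT HFD and 9.65 to 19.3 in Adn-Lpin1-/- HFD. The genotypes overlapped on the LFD (0.33 ± 0.19) and were just apart on the HFD (-0.95 ± 0.19, adjusted p = 0.00237 by edgeR). Cyp51, the lanosterol demethylase, was at 61.0, 97.3, 53.6, 60.6 and 78.6 CPM in WT LFD, 54.2, 86.0, 91.3, 64.8 and 57.3 in Adn-Lpin1-/- LFD, 99.0, 104, 118, 139 and 50.2 in WT HFD, and 40.1, 50.2, 40.0, 24.3 and 47.8 in Adn-Lpin1-/- HFD. Of the WT HFD mice, 4 were at 99.0 CPM or more and mouse 5 lay at the level of the highest Adn-Lpin1-/- HFD mouse, and the effects were 0.01 ± 0.23 and -1.33 ± 0.24. Mouse 5 was also the lowest WT HFD mouse in Sqle, Idi1, Nsdhl, Fdps and Mvk, and without it the median diet difference of the list was -0.75. Mouse 4 was the highest WT HFD mouse in Cyp51. Without mouse 4 the median was at its weakest, -0.50, with 14 members called on the HFD and 24 of 25 below 0.

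Sqle, the squalene epoxidase, had the lowest diet difference (-1.79 ± 0.62), with an effect of 0.17 ± 0.44 on the LFD against -1.62 ± 0.45 on the HFD. Idi1, the isopentenyl diphosphate isomerase, had effects of -0.25 ± 0.37 and -1.88 ± 0.37. Fdps, the farnesyl diphosphate synthase, had a diet difference of -1.32 ± 0.37, and the later enzymes Nsdhl, Msmo1 and Dhcr7 had -1.44 ± 0.39, -1.01 ± 0.36 and -0.95 ± 0.26. Srebf2, which encodes SREBP2 itself, was not called on either diet (0.12 ± 0.14 and -0.13 ± 0.13). Hmgcs1 (-0.63 ± 0.51) and Insig1 (-0.28 ± 0.34) were on the same side with intervals that include 0. Acat2, a thiolase that feeds the pathway, was the member called higher on the LFD (0.39 ± 0.12), which 7 of the 20 mice ended when left out, and Stard4, a sterol carrier, was called lower on both diets (-0.47 ± 0.12 and -0.79 ± 0.12).

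**Figure D3:**
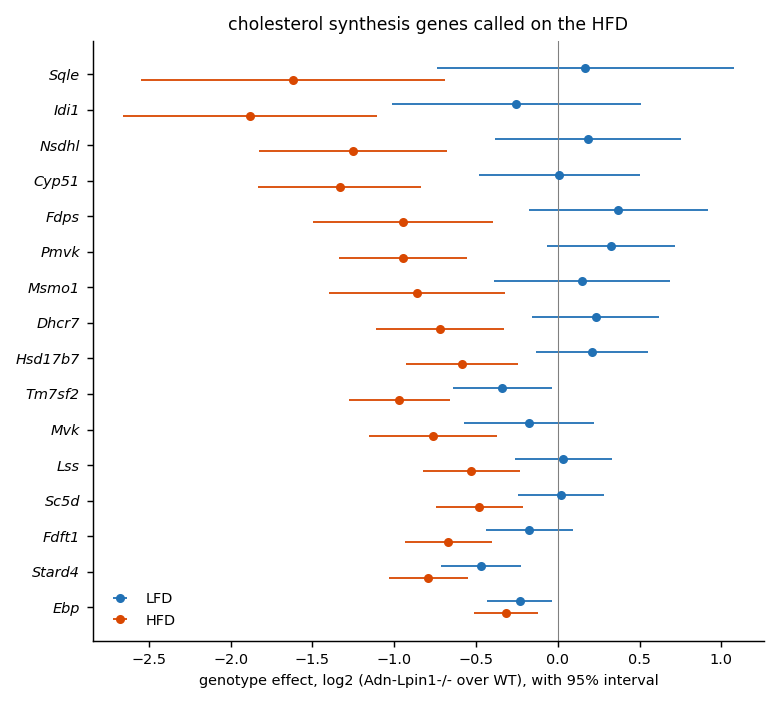
The genotype effect (log2, Adn-Lpin1-/- over WT) and its 95% interval are plotted for 16 of the 17 cholesterol synthesis genes called on the HFD, with the LFD value beside each. Every HFD value shown lies below 0, whereas the LFD values lie between -0.47 (Stard4) and 0.37 (Fdps).

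The 22 genes of fatty acid synthesis lay on the same side with less separation. Their median effect was 0.49 on the LFD and -0.01 on the HFD. With the LFD 1 was called higher (6.27% of all genes), Elovl5, a fatty acid elongase (0.96 ± 0.28). With the HFD 3 were called lower (8.78% of all genes). The diet difference had a median of -0.47 and was below 0 in 19 of 22 (48.5% of all genes), and 3 had an unadjusted p under 0.05 (3.09% of all genes in this direction). Fads1, the delta-5 desaturase of polyunsaturated fatty acids, was at 767 to 1154 CPM in WT LFD, 751 to 1205 in Adn-Lpin1-/- LFD, 706 to 1178 in WT HFD and 431 to 643 in Adn-Lpin1-/- HFD. It was apart on the HFD alone, with effects of 0.10 ± 0.16 and -0.70 ± 0.16 (diet difference -0.80 ± 0.23, adjusted p = 0.387 by edgeR). Fads2 had a diet difference of -0.76 ± 0.32 and Slc25a1, the mitochondrial citrate carrier, one of -0.27 ± 0.10. Within genotypes the HFD went with 2 members called lower in WT mice (0.674% of all genes) and 7 in Adn-Lpin1-/- mice (1.26%). The number of members with an unadjusted p under 0.05 ran from 2 to 7 over the 20 mice left out in turn, and the median from -0.71 to -0.32.

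On the high side of the diet difference stood MHC class II. None of its 7 members was called on the LFD, where the median effect was 0.28, and all 7 were called higher in Adn-Lpin1-/- mice on the HFD (9.87% of all genes were called higher), with a median of 1.34. The median diet difference was 1.09, and 6 of the 7 had an unadjusted p under 0.05 (4.1% of all genes in this direction), with adjusted p-values of 0.633 or more by edgeR. H2-Eb1, a class II beta chain, was at 19.1, 15.0, 13.6, 20.5 and 18.4 CPM in WT LFD, 12.3, 25.4, 17.4, 20.1 and 33.0 in Adn-Lpin1-/- LFD, 10.6, 13.9, 12.4, 12.8 and 14.8 in WT HFD, and 23.6, 86.7, 19, 24.3 and 26.6 in Adn-Lpin1-/- HFD. Mouse 2 of Adn-Lpin1-/- HFD stood far above the other 19 mice. Cd74, the invariant chain, was at 257 CPM in that mouse and at 57.4 to 89.0 in the other Adn-Lpin1-/- HFD mice, against 42.0 to 51.4 in WT HFD. Without mouse 2, 5 of the 7 genes were called on the HFD, the median diet difference was 0.49, and no member had an unadjusted p under 0.05. The genotypes did not overlap on the HFD for H2-Eb1, H2-Ab1, H2-DMa, H2-Aa and Cd74 with all mice included (11.4% of all genes did not overlap). They overlapped for H2-DMb1 and Ciita, the class II transactivator.

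The promoters of H2-Eb1 and H2-Aa, the 2 members of smallest p with a single entry in the table, are shown for the CCAAT box of class II promoters, with capitals that mark CCAAT on either strand as above. H2-Eb1 held 2 matches, 1 in each orientation, and H2-Aa held 1, in the reverse letters. H2-Eb1 lies on the plus strand, chr17:34305617-34305916, and H2-Aa on the minus strand, chr17:34287774-34288073, of GRCm38.p6.
H2-Eb1: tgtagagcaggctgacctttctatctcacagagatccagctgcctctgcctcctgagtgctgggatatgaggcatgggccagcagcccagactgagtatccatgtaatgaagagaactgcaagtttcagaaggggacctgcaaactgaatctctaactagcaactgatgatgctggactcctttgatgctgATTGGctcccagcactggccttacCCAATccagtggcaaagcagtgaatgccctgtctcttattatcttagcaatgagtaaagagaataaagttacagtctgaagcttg
H2-Aa: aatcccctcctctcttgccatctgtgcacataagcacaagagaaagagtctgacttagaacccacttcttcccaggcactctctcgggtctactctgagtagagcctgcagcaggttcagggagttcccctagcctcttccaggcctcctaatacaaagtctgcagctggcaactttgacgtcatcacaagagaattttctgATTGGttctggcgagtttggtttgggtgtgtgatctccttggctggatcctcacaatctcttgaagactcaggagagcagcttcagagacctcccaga
All 4 class II genes with an entry held such a match.

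**Figure D4:**
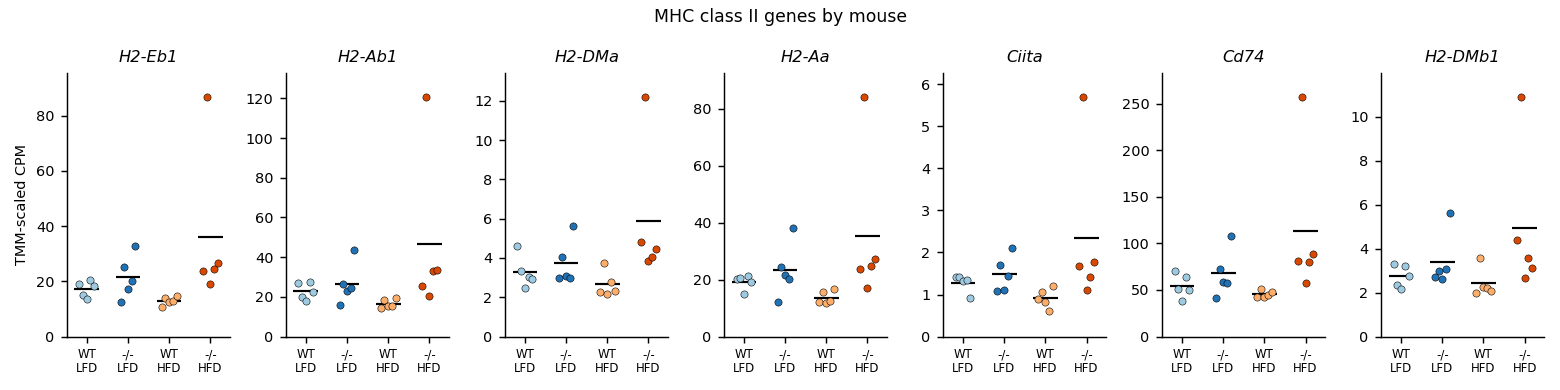
The TMM-scaled CPM of the 7 MHC class II genes is plotted for the 5 mice of each group (points, with Adn-Lpin1-/- written as -/-) with the group mean (line). Mouse 2 of Adn-Lpin1-/- HFD is the highest point in each panel, at 86.7 CPM in H2-Eb1. The other 4 mice of its group lie closer to WT HFD, without overlap in 5 of the 7 genes (11.4% of all genes did not overlap on the HFD).

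Macrophage genes were called higher for 1 of 19 with the LFD and 12 with the HFD (6.27% and 9.87% of all genes were called higher). All 19 had effects above 0 on each diet, with medians of 0.40 and 0.87, and the difference between the 2 counts was not tested. The diet difference had a median of 0.51 and was above 0 in 15 of 19, and 2 had an unadjusted p under 0.05 (4.1% of all genes in this direction). Those 2 were the Kupffer cell markers Timd4 (0.17 ± 0.26 with the LFD and 0.99 ± 0.26 with the HFD) and Clec4f (0.12 ± 0.17 and 0.63 ± 0.17). The HFD calls of both were lost without mouse 2 of Adn-Lpin1-/- HFD. Gpnmb, which marks lipid-laden macrophages, was called on both diets (2.37 ± 0.76 and 3.21 ± 0.73). Trem2 was called on neither diet (1.4 ± 0.54 and 1.4 ± 0.51), and its diet difference had a 95% interval of -1.54 to 1.54. Of the 10 inflammatory mediators tested, 4 were called higher on the HFD (9.87% of all genes) and 1 on the LFD (6.27%). Nlrp3, the inflammasome sensor, was at 0.506 to 1.24 CPM in WT LFD, 0.492 to 0.983 in Adn-Lpin1-/- LFD, 0.419 to 0.770 in WT HFD and 0.535 to 2.12 in Adn-Lpin1-/- HFD (diet difference 1.28 ± 0.45). Without mouse 2 of Adn-Lpin1-/- HFD, 5 of 18 macrophage genes were called on the HFD and the median diet difference was 0.32. For the mediators the HFD calls ran from 1 to 7 over the mice left out in turn, with 1 without mouse 2 of Adn-Lpin1-/- HFD or mouse 3 of WT HFD. Interferon-stimulated genes had a median diet difference of -0.07, and 2 of 19 were called higher on each diet (6.27% and 9.87% of all genes). Lymphocyte markers, of which 3 of 9 were tested, summed to 7.82 to 13.7 CPM in Adn-Lpin1-/- HFD, 6.98 to 9.42 in WT HFD, 17.7 to 32.1 in Adn-Lpin1-/- LFD and 8.25 to 40.7 in WT LFD. The part of immune cell content in the class II values was not tested.

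Fibrosis-related genes were called higher in Adn-Lpin1-/- mice on both diets. Of 25 stellate cell and matrix genes, 14 were called higher on the LFD (6.27% of all genes) and 7 on the HFD (9.87%). On both diets 6 were called (418 of 13052 genes). The list medians were 0.80 and 0.47. The diet difference was below 0 in 20 of 25, with a median of -0.29, and 1 had an unadjusted p under 0.05. That was Lum, the proteoglycan lumican, with an effect of 1.17 ± 0.30 on the LFD against 0.29 ± 0.29 on the HFD. Of the 22 collagens, 13 were called higher on the LFD (6.27% of all genes), 11 on the HFD (9.87%) and 9 on both (418 of 13052 genes). Their medians were 0.94 and 0.75. Col27a1 and Col5a3 had diet differences above 0 (0.95 ± 0.29 and 0.60 ± 0.19). Col27a1 was at 23.5 to 63.6 CPM in WT HFD and 75.2 to 110 in Adn-Lpin1-/- HFD, without overlap (1.03 ± 0.21), and overlapped on the LFD (0.07 ± 0.21). Col5a3 was called on both diets (0.42 ± 0.14 and 1.02 ± 0.14), and its LFD call was lost with 12 of the 20 mice left out in turn. Mesothelial markers, of which 4 of 8 were tested and none was called by edgeR, summed to 1.73 to 3.20 CPM in WT LFD, 2.23 to 14.8 in Adn-Lpin1-/- LFD, 3.83 to 6.78 in WT HFD and 2.68 to 5.41 in Adn-Lpin1-/- HFD, with a median diet difference of -1.60. Upk3b had one of -2.80 ± 0.97 and Msln one of -2.28 ± 1.02, and without mouse 2 of Adn-Lpin1-/- LFD the median was -0.84. Their part in the matrix genes was not tested. The counts rest on few mice. Left out in turn, the mice gave 8 to 15 stellate cell calls on the LFD (8 if mouse 3 of WT LFD or mouse 2 of Adn-Lpin1-/- LFD was left out) and 1 to 9 on the HFD (1 without mouse 1 or 2 of Adn-Lpin1-/- HFD or mouse 1 or 5 of WT HFD). Collagen calls ran from 9 to 13 for the LFD and from 5 to 14 for the HFD, with 5 and 6 without mice 1 and 2 of Adn-Lpin1-/- HFD. DESeq2's Wald test called 14 collagens for each diet, and the pools as sixth libraries gave 15 for the LFD against 16 for the HFD, so which diet had more calls depended on the setting.

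Among genes of glucose and hormone response, Ppp1r3g stood out. The gene (chromosome 13, 35958839 to 35970388, plus strand, GRCm38) encodes a subunit that targets protein phosphatase 1 to glycogen. Its levels were 3.17, 2.09, 4.91, 2.48 and 2.84 CPM in WT LFD, 45.9, 71.7, 18.6, 42.0 and 36.0 in Adn-Lpin1-/- LFD, 1.60, 0.564, 1.42, 2.56 and 1.61 in WT HFD, and 4.21, 4.10, 3.53, 9.10 and 4.59 in Adn-Lpin1-/- HFD. The genotypes did not overlap on either diet, and the increase of 3.80 ± 0.37 on the LFD stood against one of 1.71 ± 0.37 on the HFD. The diet difference was -2.08 ± 0.51 (95% interval -3.14 to -1.03), with an adjusted p of 0.308 by edgeR. In Adn-Lpin1-/- mice it fell by 3.07 with the HFD (adjusted p = 7.26e-05 by edgeR). It was the 1 of 10 glycogen genes with an unadjusted p under 0.05, and the list median was -0.06. G6pc, glucose-6-phosphatase, was at 171 to 493 CPM in WT LFD and 524 to 836 in Adn-Lpin1-/- LFD, without overlap, and at 155 to 522 and 115 to 348 on the HFD (0.83 ± 0.32 and -0.32 ± 0.32, called on neither). Fgf21, a fasting-induced hepatokine, had effects of 1.14 ± 0.39 and -0.57 ± 0.38, Igfbp1 had 1.13 ± 0.48 and -0.01 ± 0.48, and the insulin receptor substrate gene Irs2 had 0.43 ± 0.19 and -0.39 ± 0.19, with none called on either diet. These genes do not stand for their lists. The diet difference was above 0 in 18 of 22 glycolysis and gluconeogenesis genes (median 0.13) and 9 of 15 insulin signalling genes (0.01). It was below 0 in 9 of 14 hepatokines (median -0.11), against 48.5% of all genes. Of the glycolysis and gluconeogenesis genes, 3 were called higher on the HFD (9.87% of all genes) and 1 lower on the LFD (8.11%). Pparg, the adipogenic nuclear receptor that is induced in fatty liver, was called on the LFD alone (1.4 ± 0.41 and 0.20 ± 0.40), while its WT mice were at 1.84 to 9.66 CPM on the LFD and 7.40 to 15.3 on the HFD. This call was lost with 5 of the 20 mice left out in turn. Lipid droplet and PPAR gamma genes had 7 of 21 members called higher and 1 lower on the LFD (6.27% and 8.11% of all genes). On the HFD 6 were called higher (9.87% of all genes), 5 of them on both diets (418 of 13052 genes).

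Cytochrome P450 genes of families 1 to 3 were lower in Adn-Lpin1-/- mice for 10 of 44 on the LFD (8.11% of all genes were called lower), with no increase, and split into 4 higher and 9 lower on the HFD (9.87% and 8.78% of all genes). The diet difference had an unadjusted p under 0.05 for 7 members, all higher on the HFD (4.1% of all genes). They were led by Cyp2d40 (0.64 ± 0.17) and Cyp2d9 (0.44 ± 0.12), near neighbours on chromosome 15 with similar sequences. By the study's methods only uniquely aligned reads were counted, so reads that match both genes equally would be missing from these values. In Adn-Lpin1-/- mice 7 members were called higher with the HFD (1.2% of all genes). Obp2a, a lipocalin of the odorant-binding family listed among male-biased liver genes, was at 0.197 to 0.983 CPM in WT LFD, 0.558 to 2.90 in Adn-Lpin1-/- LFD, 0.753 to 2.68 in WT HFD and 5.55 to 29.2 in Adn-Lpin1-/- HFD, and was called on the HFD alone (3.30 ± 0.53 against 1.19 ± 0.57). Obp2a does not stand for the 14 male-biased genes tested. Among these, the HFD calls were 5 lower and 2 higher (8.78% and 9.87% of all genes). The LFD calls were 3 lower and 0 higher (8.11% and 6.27%). The list's median effect by diet came to -0.30 (LFD) and -0.45 (HFD). Its diet difference was below 0 for 8 members and above 0 for 6, with a median of -0.10. Major urinary protein genes are near-identical copies, and reads that match several of them equally would likewise not be counted. Their diet difference was above 0 in 19 of 20, with a median of 0.92, which was 0.23 without mouse 5 of Adn-Lpin1-/- HFD. That mouse had 232 CPM of Mup9 where the others of its group had 3.81 to 36.6. The 7 female-biased genes tested had a diet difference above 0 in every case and none had an unadjusted p under 0.05. Their median was 0.33, and -0.09 without mouse 5 of WT LFD.

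Cytosolic ribosomal protein genes were called lower in Adn-Lpin1-/- mice for 26 of 79 with the LFD and 54 with the HFD (8.11% and 8.78% of all genes). Of these, 21 were called on both diets (595 of 13052 genes). The medians were -0.21 and -0.29, and the interval of the diet difference lay inside a 2-fold change for 78 of 79. Nuclear genes of oxidative phosphorylation had medians of -0.06 and -0.03 over 76 members, each with an interval of the diet difference inside a 2-fold change. Cell cycle genes had medians of 0.61 on both diets, with 7 and 6 of 19 called higher (6.27% and 9.87% of all genes). On both diets 5 were called (418 of 13052 genes). Markers of sinusoidal endothelium were called higher for 4 of 8 with the LFD (6.27% of all genes) and 6 with the HFD (9.87%). Stab1 was at 28.9 to 46.8 and 55.9 to 61.7 CPM on the LFD and at 30.4 to 41.7 and 54.5 to 63.4 on the HFD, without overlap on either diet (diet difference 0.16 ± 0.14). Bile acid genes were called lower for 5 of 20 on each diet (8.11% and 8.78% of all genes), and 1 was called higher with the LFD (6.27%). Fatty acid oxidation genes were called higher for 3 and 2 of 35 (6.27% and 9.87% of all genes), and 1 was called lower with the HFD (8.78%). Baat, which conjugates bile acids, was called on the LFD alone (-0.33 ± 0.07 and 0.00 ± 0.07). Oat, ornithine aminotransferase, was called on the HFD alone (-0.20 ± 0.11 and -0.79 ± 0.11) and had the smallest p of the 37 genes of amino acid catabolism. Of the 20 genes that the study's text names for liver RNA, and so chose on these samples, 19 were tested. On the HFD 7 were called higher (9.87% of all genes), of which 5 were also called on the LFD (418 of 13052 genes were called higher on both diets). Circadian clock genes were called lower for 4 of 19 on each diet (8.11% and 8.78% of all genes). Of these, 3 were called on both (595 of 13052 genes). The 3 lipin genes were called on neither diet, with diet differences of -0.51 ± 0.70 for Lpin1, -0.19 ± 0.24 for Lpin2 and -0.07 ± 0.16 for Lpin3.

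**Figure D5:**
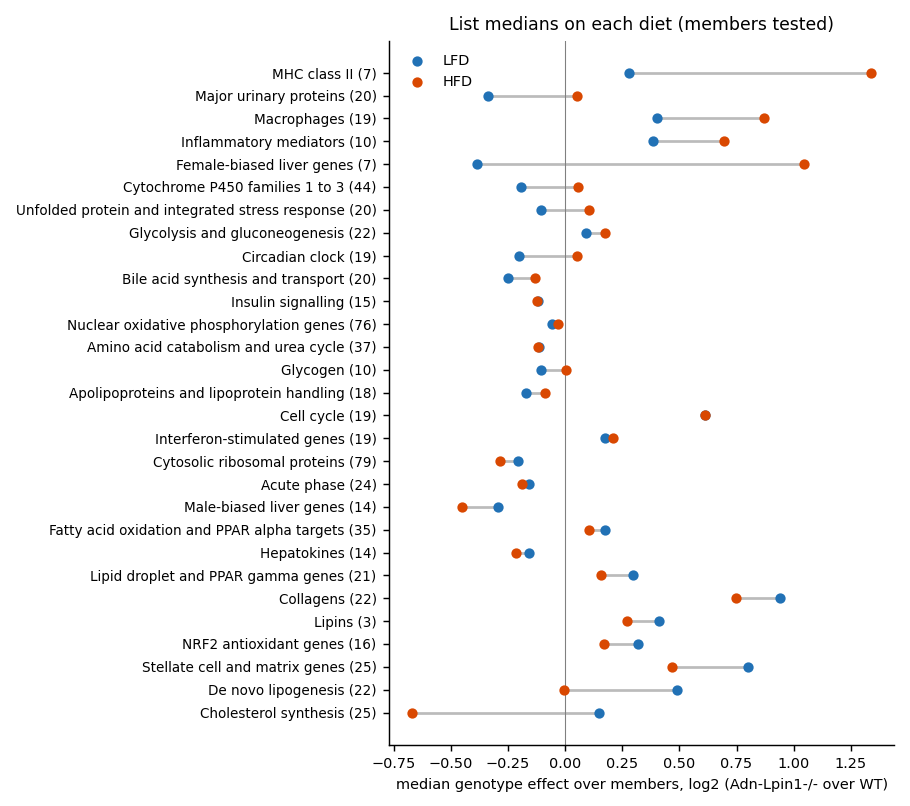
For each gene list (members tested in brackets) the median genotype effect over its members (log2, Adn-Lpin1-/- over WT) is plotted for each diet, ordered by the median diet difference. Cholesterol synthesis (0.15 and -0.67) and MHC class II (0.28 and 1.34) are at the ends of the lists shown, which leave out the cell type checks such as mesothelium, and cell cycle genes (0.61 and 0.61) lie at the same place on both diets.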

How the data were processed

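Poly-A selected liver RNA was sequenced by the authors, aligned to GRCm38 with STAR 2.5.1a and counted per gene with featureCounts 1.4.6-p5. The deposited tables give raw counts per gene with the authors' CPM and RPKM values beside them. Only the counts were analysed, and the deposited CPM and RPKM were not used. Symbols were found for 40254 of 41388 gene IDs (97.3%), and coordinates are GENCODE, GRCm38.

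After 355 ribosomal RNA genes were left out, genes that exceeded 1 CPM in 4 or more of the 20 libraries of single mice were kept, which gave 13052 genes. Counts were scaled by TMM, and both genotype effects, both diet effects and their difference were fitted in 1 model of the 4 groups with edgeR 4.0.16 (R 4.3.3, quasi-likelihood, Benjamini-Hochberg over all genes). The steps were tested on simulated data. The study's methods used voom with quality weights (limma 3.58.1), which was run as an alternative. Other alternatives were DESeq2 1.42.0, other scalings and filters, a GC correction, thinned counts, a robust fit, the replicate block, the pools as added libraries, and each mouse left out.

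The comparison, members and gene lists were chosen with earlier results of these data known. Named genes were drawn from the 6 of smallest p in each direction, the 2 of smallest p in each list, the 5 largest shared changes in each direction, genes called in opposite directions, the lipins and the genes named in the study's text. Not all of these are printed. Those of the stress response, antioxidant and lipoprotein lists are left out, among them Asns, which was called lower on the HFD alone. Further list members were named after their values were seen. Counts cover mice as labelled, and p-values measure the spread between these 5 mice per group. The values of 1 cholesterol synthesis gene are not reported here, although it is counted in its list.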

Additional observations from a re-analysis of the deposited data

Results flagged for a closer look

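In 6 of 124 groups of 5 mice examined, 1 mouse lay farther from the nearest other mouse than 0.71 of the group's range. Chance alone gives this in about 1 group in 20. Mouse 2 of Adn-Lpin1-/- HFD was the highest of its group in the MHC class II score (2.04, the median over the genes of centred log2 CPM), and the class II values of the report are given with and without it. In Erg28, mouse 2 of WT HFD was the highest of its group at 62.3 CPM, and in Ddt, mouse 2 of WT LFD was the lowest at 37.9 CPM. Lnpep was highest in mouse 3 of Adn-Lpin1-/- LFD (1.47 CPM) and lowest in mouse 5 of WT HFD (4.84 CPM), with no overlap of genotypes on either diet. Cidea was above 0 in only 1 WT LFD mouse, mouse 5, at 0.0986 CPM.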

How the results depend on the processing

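The diet difference gave 0 calls in the main edgeR test and in each of the 20 tests with 1 mouse left out (range 0 to 0). It gave 30 with DESeq2's Wald test, 4 with the pools as sixth libraries and 190 with voom, quality weights and the pools. Genotype calls with the pools, and with voom and the pools, were 3017 and 4177 for the LFD, 3781 and 4763 for the HFD, and 1848 and 2453 for both. With 1 mouse left out they ran from 1208 to 1954 for the LFD, 1477 to 2750 for the HFD and 728 to 1156 on both. By their labels the pools hold RNA of the same mice, so these added calls do not come from more animals. The median diet difference of the cholesterol genes ran from -0.758 to -0.497 and that of MHC class II from 0.488, with mouse 2 of Adn-Lpin1-/- HFD left out, to 1.29. No called direction of a named gene and no sign of these medians reversed in the alternatives run. Over the diet differences and called genotype effects of the named genes, a call was lost in 131 of 3380 values with 1 mouse left out, and in 62 of 2024 under other settings, where 53 diet differences passed (DESeq2 or the pools).

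Among same-numbered mice in different groups, 6 of 30 pairs had a correlation of their deviations over 0.1 (range -0.415 to 0.281). No pairing by number was seen, but this check cannot exclude one, since paired mice need not deviate together. With the replicate block there were 0 calls for the diet difference, 1532 for the LFD, 2012 for the HFD and 789 for both, and medians of -0.63 for cholesterol synthesis and 0.99 for MHC class II.

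With 5 mice a group, the median half-width of the unadjusted 95% interval of the diet difference was 0.349 on the log2 scale, and larger differences also missed the adjusted threshold.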
